A study of Mus musculus with 6 samples.

Results

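The genes described here are 10 components of the Hippo pathway: the co-activator genes Yap1 and Wwtr1, the DNA-binding partner genes Tead1, Tead2, Tead3 and Tead4, the target genes Ccn1 and Ccn2 and the kinase genes Lats1 and Lats2. They were chosen by symbol, as probe sets paired with exactly 1 of these names, and all 10 were measured, out of 10261 genes in all. Tead1 had 2 probe sets and the other members 1 each, which gave 11 of the 11288 probe sets with 1 symbol. Total RNA was hybridised to 6 arrays (Affymetrix MoGene-1_0-st), on which several short probes together report a transcript. There were 3 arrays labelled keratinocytes, described as untreated primary epidermal cells of newborn mice (P0). Another 3 were labelled MEFs and described as untreated fibroblasts of E13.5 mouse embryos. For the keratinocytes the sources name no strain. The methods name C57BL/6J for the MEFs, whereas the isolation protocol in the labels asks for the strain DR-4. MEFs are a mixed culture grown from pooled embryos after removal of the head and inner organs. The keratinocytes were grown in an epidermal medium and the MEFs in a serum medium, so that cell type, age, strain and medium cannot be told apart. All of this follows the labels, and the marker genes ran against them (below). Whether source, age, strain and medium belong to the arrays so labelled was not tested.

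The Hippo pathway restrains growth through a chain of kinases. When it is active, LATS kinases phosphorylate YAP (from Yap1) and TAZ (from Wwtr1), which are then held in the cytoplasm or degraded. When it is inactive, both proteins enter the nucleus and bind TEAD factors, which bring them to DNA. Ccn1 and Ccn2, formerly Cyr61 and Ctgf, encode secreted matricellular proteins and are widely used as readouts of YAP and TAZ. In skin YAP is known for its role in the proliferation of basal epidermal cells, and in fibroblasts YAP and TAZ respond to the stiffness of the matrix. An array reads RNA, so phosphorylation and the place of these proteins in the cell were not measured here.

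The labels ran against the marker genes. Cdh1, which encodes the epithelial adhesion protein E-cadherin, had log2 signals of 3.33, 2.16 and 3.26 on the keratinocyte-labelled arrays, against 8.62, 8.59 and 8.73 on the MEF-labelled ones. Vim, the gene of the mesenchymal filament protein vimentin, stood at 11.93, 11.97 and 12.03 on the keratinocyte-labelled arrays, against 3.81, 3.92 and 3.78 on the MEF-labelled ones. Counting these, 10 of 10 keratinocyte markers were lower and 10 of 10 fibroblast markers higher on the keratinocyte-labelled arrays, each passing the test used below. The mean log2 signal of the keratinocyte markers was between 3.10 and 3.21 on the keratinocyte-labelled arrays and between 9.97 and 10.00 on the MEF-labelled arrays. That of the fibroblast markers was between 10.30 and 10.38 on the keratinocyte-labelled arrays and between 3.63 and 3.74 on the MEF-labelled arrays. Every direction below therefore follows the label of an array, with the Vim-high arrays being those labelled keratinocytes and the Cdh1-high arrays those labelled MEFs. Of markers of other cells, the muscle gene Des was the only 1 measured of 3 skeletal muscle markers. It had a log2 signal between 5.66 and 6.31 on the keratinocyte-labelled arrays and between 1.57 and 2.59 on the MEF-labelled arrays. Of 3 measured cartilage markers, 2 were higher and 1 was lower on the keratinocyte-labelled arrays. Of the same 3, 1 was above background on no array. Their mean log2 signal was between 6.52 and 6.66 on the keratinocyte-labelled arrays, against 5.00 to 5.09 on the MEF-labelled arrays. Cd68 and Lyz2 were the 2 measured of 5 leukocyte markers and went in opposite directions, the only endothelial marker measured, Kdr, was lower on the keratinocyte-labelled arrays and above background on no array, and none of 4 melanocyte markers was measured. The part of such cells in the results was not tested. Arrays of a label correlated at 0.976 or more over all probe sets, and arrays of different labels at 0.721 to 0.740. A signal from a mixed culture does not separate a smaller share of cells of a type from less RNA per cell.

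Since TEAD factors bring YAP and TAZ to DNA, the stretch before the start of the target gene Ccn1 is shown first, with the letters known as the core of the TEAD motif in capitals. The search was for GGAATG on either strand (CATTCC as read from the gene's strand), in RefSeq promoter windows of 300 bases, of which 250 lie before and 50 after an annotated start (GRCm38.p6). Windows were listed for 7 of the 10 members, namely Yap1, Wwtr1, Tead2, Tead3, Ccn1, Lats1 and Lats2. The Ccn1 stretch is the 250 bases before the start, at chr3:145649986-145650235 on the minus strand, and holds the run once, 103 bases before the start.
Ccn1: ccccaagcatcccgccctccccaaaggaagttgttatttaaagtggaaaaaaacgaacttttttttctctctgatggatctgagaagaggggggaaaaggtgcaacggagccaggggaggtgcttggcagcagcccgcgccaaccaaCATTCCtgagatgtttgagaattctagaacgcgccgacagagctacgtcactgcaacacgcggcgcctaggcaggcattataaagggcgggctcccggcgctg

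Both co-activator genes, which changed in opposite directions, and Ankrd1 and Ajuba, known targets that also went in opposite directions, are set side by side to show the run in its surroundings. The stretches are at chr9:8004712-8004757 for Yap1, chr3:57576021-57576066 for Wwtr1, chr19:36119942-36119987 for Ankrd1 and chr14:54577822-54577867 for Ajuba, all on the minus strand and all outside the annotated gene. Ankrd1 and Ajuba each hold the run at 2 places in their window, of which 1 is shown.
Yap1: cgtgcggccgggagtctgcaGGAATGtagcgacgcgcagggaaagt
Wwtr1: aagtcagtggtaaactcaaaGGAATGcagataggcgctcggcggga
Ankrd1: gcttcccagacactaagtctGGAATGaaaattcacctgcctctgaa
Ajuba: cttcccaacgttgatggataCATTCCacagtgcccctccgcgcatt

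The run was found in windows of 5 of the 7 members with a window (Ccn1, Lats2, Tead3, Wwtr1 and Yap1), and in 7 of their 11 windows, some of which overlap. Of all 32851 windows, 14.7% held it, and of all genes with a window, 16.6%. Of 19 genes on a list of known YAP and TAZ targets that had a window, 7 (36.8%) held it, and of 43 other pathway genes with a window, 12 (27.9%). Ajuba and Ptpn14, which held the run, are on both of these lists and count in each. The longer form GGAATGT, or ACATTCC, was in windows of 3 of the 7 members (Ccn1, Tead3 and Yap1) and in 3 of their 11 windows. Of all windows 3.85% held this form, and of all genes with a window, 4.47%. A match describes the letters of a window and is not a binding site, and no match says only that these letters are not in that window.

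The 2 groups were compared by limma across all 11288 probe sets with 1 symbol, as keratinocyte-labelled minus MEF-labelled arrays, and a call required an adjusted p (Benjamini-Hochberg, over all of them) below 0.05. Where a gene had several probe sets, the brightest stood for it. All 10 members were called, 8 higher and 2, Yap1 and Tead4, lower on the keratinocyte-labelled arrays. The background is high, because 74.5% of all genes were called, 32.9% as higher and 41.7% as lower on the keratinocyte-labelled arrays. The groups did not overlap for any of the 10 members, nor for 78.4% of all genes. With a log2 difference of at least 1 in either direction 28.4% of all genes were called, and 4 of the 10 members, Ccn1, Ccn2, Tead2 and Tead4. The median log2 difference of the members was 0.71, against -0.12 over all genes. Olfactory receptor genes, known for their role in the nose, set a background level on each array, namely the 95th percentile of 10 such probe sets. It lay between 5.49 and 5.92 on the keratinocyte-labelled arrays and between 6.05 and 6.58 on the MEF-labelled arrays, close to the median signal of all probe sets (6.16 to 6.22 and 6.25 to 6.31). Where every array of a group lay at or below it, the fold is given as a lower bound. This bound sets the bright group's mean over the mean background level of the dim group's arrays. A signal below this level need not mean that a gene is silent. Every member lay above it on some array, against 73.2% of all genes. With only probe sets above it on at least 3 arrays in the fit, 82.1% of genes were called. RMA levels of different probe sets cannot be ranked against each other, so only differences are compared between genes. With 3 arrays a group the precision is limited, and the replicates are named as biological, with no word on whether they came from separate animals or cultures, so p-values measure the spread between these arrays.

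**Figure D1:**
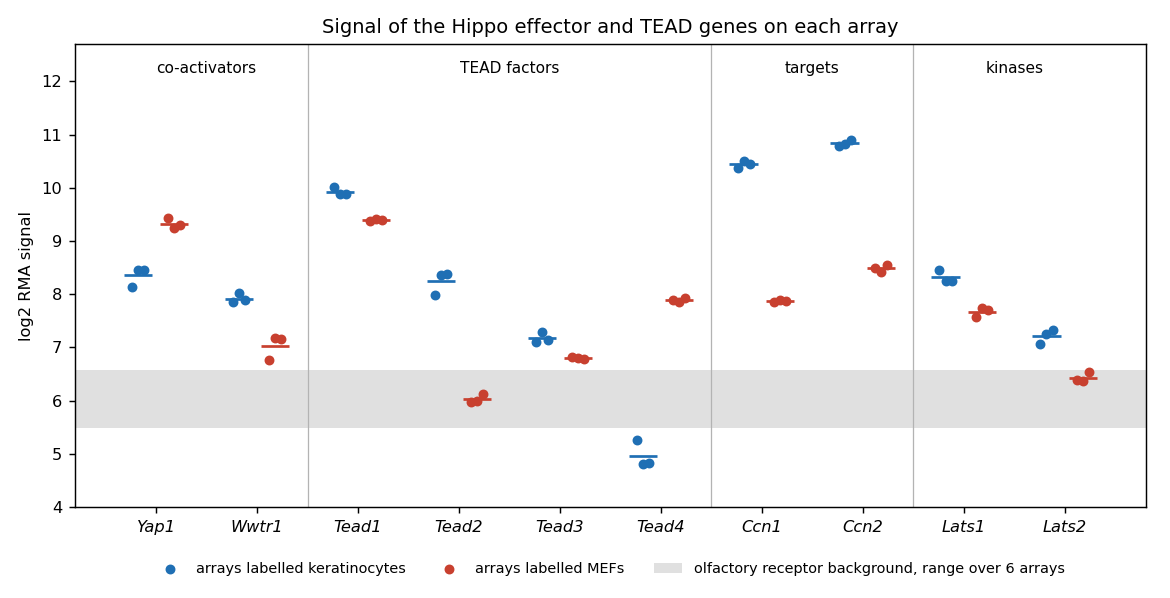
Log2 RMA signal (vertical axis) of the 10 genes, with a point for each array, blue where labelled keratinocytes and red where labelled MEFs (3 each), a line at each group mean and, in grey, the span of the background levels of the 6 arrays. Yap1 and Tead4 are lower on the keratinocyte-labelled arrays and the other 8 genes higher, and no gene's groups overlap.

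The co-activator genes went in opposite directions. Yap1 had log2 signals of 8.14, 8.46 and 8.46 on the keratinocyte-labelled arrays, against 9.43, 9.24 and 9.30 on the MEF-labelled arrays. The groups did not overlap, and Yap1 was 1.96-fold lower on the keratinocyte-labelled arrays (log2 difference -0.97, 95% interval -1.24 to -0.70, limma adjusted p = 1.10e-04). Wwtr1, which encodes TAZ, had signals of 7.85, 8.02 and 7.89 on the keratinocyte-labelled arrays, against 6.76, 7.17 and 7.15 on the MEF-labelled arrays. It was 1.85-fold higher on the keratinocyte-labelled arrays (log2 difference 0.89, 95% interval 0.59 to 1.19, limma adjusted p = 3.30e-04). The lowest Wwtr1 signal was that of MEF-labelled replicate 1, which also had the highest Yap1 signal. Within an array, the log2 ratio of Yap1 to Wwtr1 was 0.44 ± 0.14 on the keratinocyte-labelled arrays and 2.30 ± 0.33 on the MEF-labelled arrays (SD, n = 3), a difference of -1.86 ± 0.21 (SE) or a 3.63-fold shift of the ratio. The ratios of the groups did not overlap, and the exact two-sided permutation test gave p = 0.1, the smallest that 3 arrays against 3 allow. In all, 9 such pairs of genes with a shared role were compared, and the adjusted exact p of Yap1 to Wwtr1 was 0.129.

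The 4 TEAD genes encode factors with a shared DNA-binding domain, and their differences ran over a wide range in both directions. Tead4, known in the mouse embryo for its role in forming the trophectoderm, had log2 signals of 5.26, 4.81 and 4.82 on the keratinocyte-labelled arrays, against 7.89, 7.85 and 7.93 on the MEF-labelled arrays. It was below background on every keratinocyte-labelled array and above it on every MEF-labelled array. Tead4 was at least 4.56-fold lower on the keratinocyte-labelled arrays (log2 difference -2.92, 95% interval -3.23 to -2.62, limma adjusted p = 2.50e-07). Tead2, an early embryonic TEAD gene, went the other way, with signals of 7.99, 8.36 and 8.38 on the keratinocyte-labelled arrays, against 5.98, 5.99 and 6.13 on the MEF-labelled arrays. It was above background on each of the keratinocyte-labelled arrays and on none of the MEF-labelled ones, and at least 3.63-fold higher on the keratinocyte-labelled arrays (log2 difference 2.21, 95% interval 1.92 to 2.50, limma adjusted p = 1.00e-06).

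Tead1 and Tead3 were above background on all 6 arrays, and their differences were smaller. The brighter probe set of Tead1, a TEAD gene known for its role in heart development, had log2 signals of 10.01, 9.87 and 9.89 on the keratinocyte-labelled arrays, against 9.38, 9.41 and 9.40 on the MEF-labelled arrays. It was 1.44-fold higher on the keratinocyte-labelled arrays (log2 difference 0.53, 95% interval 0.33 to 0.72, limma adjusted p = 6.71e-04). The other probe set of Tead1 gave 1.50-fold in the same direction, with 8.57 ± 0.08 (SD, n = 3) on the keratinocyte-labelled arrays and 7.98 ± 0.04 on the MEF-labelled arrays (limma adjusted p = 3.89e-04). Tead3, a TEAD gene known for its expression in placenta, stood at 7.11, 7.28 and 7.14 on the keratinocyte-labelled arrays, against 6.83, 6.81 and 6.78 on the MEF-labelled arrays. Its 1.30-fold difference was the smallest among the members (log2 difference 0.37, 95% interval 0.17 to 0.58, limma adjusted p = 5.35e-03), and as measured 66.0% of all genes differed by more in either direction.

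Between TEAD genes, the per-array ratios of the groups did not overlap in 5 of 6 pairs (exact two-sided permutation test, p = 0.1 for each, the smallest possible, adjusted p = 0.129 over 9 pairs). Each of these 5 pairs holds Tead2 or Tead4, so the differences of their ratios rest on signals below background in 1 group, or in both groups for Tead2 to Tead4. All are given as measured. The widest was that of Tead2 to Tead4, whose log2 ratio was 5.13 ± 0.28 (SE) higher on the keratinocyte-labelled arrays. The log2 ratio of Tead1 to Tead2 differed by -1.68 ± 0.18 (SE), being lower on the keratinocyte-labelled arrays. The pair that did overlap was Tead1 and Tead3, whose log2 ratio lay between 2.59 and 2.90 on the keratinocyte-labelled arrays and between 2.55 and 2.62 on the MEF-labelled arrays, a difference of 0.15 ± 0.09 (SE, exact two-sided permutation test, p = 0.3). This does not show that Tead1 and Tead3 changed alike.

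**Figure D2:**
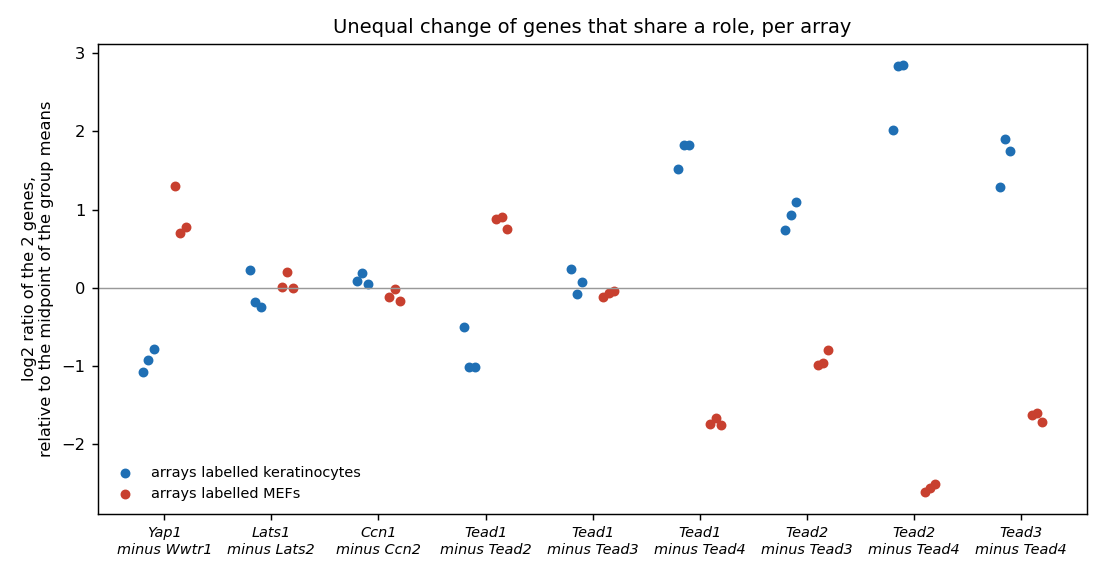
Log2 ratio of 2 genes with a shared role on each array (vertical axis), set relative to the midpoint of its group means because levels of different probe sets have no common scale, with blue points for keratinocyte-labelled and red points for MEF-labelled arrays (3 each). As measured, the groups are farthest apart for Tead2 minus Tead4, by 5.13, a value that rests on signals below background, and overlap for Lats1 minus Lats2 and Tead1 minus Tead3.

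Both target genes were much higher on the keratinocyte-labelled arrays. Ccn1 had log2 signals of 10.37, 10.50 and 10.44 on the keratinocyte-labelled arrays, against 7.86, 7.90 and 7.88 on the MEF-labelled arrays. It was 5.90-fold higher on the keratinocyte-labelled arrays (log2 difference 2.56, 95% interval 2.36 to 2.76, limma adjusted p = 4.15e-08). Ccn2 stood at 10.79, 10.82 and 10.91 on the keratinocyte-labelled arrays, against 8.49, 8.43 and 8.55 on the MEF-labelled arrays. It was 5.09-fold higher on the keratinocyte-labelled arrays (log2 difference 2.35, 95% interval 2.15 to 2.55, limma adjusted p = 8.09e-08). Both genes were above background on all 6 arrays, so neither fold is a bound. The log2 ratio of Ccn1 to Ccn2 was 0.21 ± 0.06 (SE) higher on the keratinocyte-labelled arrays, without overlap of the groups (exact two-sided permutation test, p = 0.1).

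The kinase genes were both moderately higher on the keratinocyte-labelled arrays. Lats1 had log2 signals of 8.46, 8.25 and 8.24 on the keratinocyte-labelled arrays, against 7.57, 7.74 and 7.71 on the MEF-labelled arrays, and was 1.57-fold higher on the keratinocyte-labelled ones (log2 difference 0.65, 95% interval 0.41 to 0.88, limma adjusted p = 5.17e-04). Lats2, which is itself known as a target of YAP, stood at 7.07, 7.26 and 7.32 on the keratinocyte-labelled arrays, against 6.39, 6.37 and 6.55 on the MEF-labelled arrays. As measured it was 1.72-fold higher on the keratinocyte-labelled arrays (log2 difference 0.78, 95% interval 0.54 to 1.02, limma adjusted p = 2.01e-04), but of the MEF-labelled arrays only 1 was above background. The log2 ratio of Lats1 to Lats2 lay between 0.92 and 1.40 on the keratinocyte-labelled arrays and between 1.16 and 1.37 on the MEF-labelled arrays, a difference of -0.13 ± 0.16 (SE, exact two-sided permutation test, p = 0.5). The groups overlapped, which does not show that both kinase genes changed alike.

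**Figure D3:**
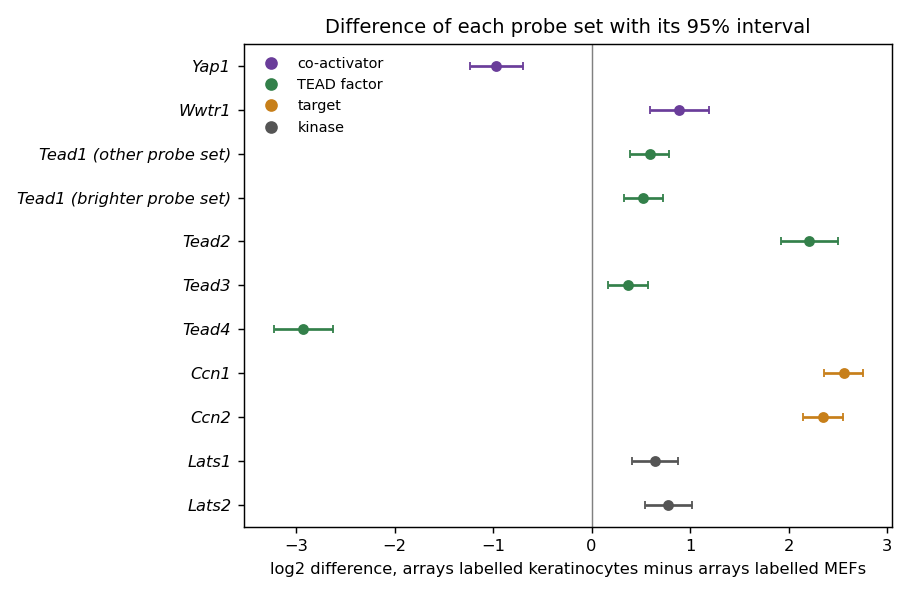
Log2 difference of each of the 11 probe sets, arrays labelled keratinocytes minus arrays labelled MEFs (horizontal axis), with bars for the 95% interval from limma and colours for the role of the gene. Tead4 at -2.92 and Yap1 at -0.97 lie left of 0, both probe sets of Tead1 lie close together at 0.53 and 0.59, and Ccn1 and Ccn2 lie farthest to the right as measured. The points of Tead2 and Tead4 are measured differences that rest on signals below background in 1 group.

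The other genes of the pathway moved in both directions, at shares close to those of all genes. Of 56 genes on a list of other pathway components, 45 were measured, of which 15 (33.3%) were higher and 21 (46.7%) lower on the keratinocyte-labelled arrays and 9 were not called, with a median log2 difference of -0.12. Stk4, which encodes the kinase MST1 that activates LATS, had log2 signals of 6.70, 6.33 and 6.62 on the keratinocyte-labelled arrays, against 7.93, 8.14 and 8.02 on the MEF-labelled arrays (2.80-fold lower, limma adjusted p = 9.11e-06). Nf2, which encodes merlin, a membrane-linked activator of LATS, stood at 6.58, 6.55 and 6.51 on the keratinocyte-labelled arrays, against 7.43, 7.56 and 7.56 on the MEF-labelled arrays (1.96-fold lower, limma adjusted p = 1.77e-05). The gene of the LATS co-factor Mob1b was 1.18-fold lower on the keratinocyte-labelled arrays, with an adjusted p of 0.0470 by limma that lay close to the threshold. Its call was lost with a replicate block (adjusted p = 0.113 by limma), with median centring (0.172) and without any single array other than keratinocyte-labelled replicate 3 (0.0749 to 0.139). Neither Mob1a, at 6.83 ± 0.15 and 7.08 ± 0.10 (SD, n = 3), nor the scaffold gene Sav1, at 8.44 ± 0.05 and 8.25 ± 0.08 on the keratinocyte-labelled and MEF-labelled arrays, passed (limma adjusted p = 0.0695 and 0.0786), although Mob1a did without keratinocyte-labelled replicate 1 (0.0203) and Sav1 with median centring (0.0215). Of these 5 measured genes around the upstream kinase, 3 were called lower and 0 higher on the keratinocyte-labelled arrays. Of all genes, 41.7% were called lower and 32.9% higher there, 74.5% in all. Of the 3, Stk4 and Nf2 kept their call under all 16 alternatives and Mob1b under 7.

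Genes of atypical cadherins were among those with the widest differences on this list. Fat4, an atypical cadherin, had log2 signals of 8.86, 8.91 and 8.83 on the keratinocyte-labelled arrays, against 2.53, 2.04 and 2.14 on the MEF-labelled arrays, at least 5.59-fold higher (limma adjusted p = 3.58e-09). Dchs1, the gene of the cadherin that binds FAT4, was at least 1.68-fold higher there (7.14 ± 0.09 against 3.25 ± 0.42, SD, n = 3). Fat2, an atypical cadherin known in skin epithelium, ran the other way, with signals of 3.12, 2.87 and 3.21 on the keratinocyte-labelled arrays, against 7.72, 7.42 and 7.71 on the MEF-labelled arrays, at least 3.76-fold lower (limma adjusted p = 1.66e-08). The Fat family thus differed in both directions between its measured members Fat2 and Fat4.

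Wwc1, which encodes KIBRA, an upstream activator of LATS, stood at 4.56 ± 0.21 on the keratinocyte-labelled arrays and 7.40 ± 0.05 on the MEF-labelled arrays (SD, n = 3), at least 3.24-fold lower on the keratinocyte-labelled ones. Stk26, a kinase gene of the STRIPAK complex, which opposes MST kinases, was at least 2.29-fold lower. Of the STRIPAK scaffold genes, Strn was 3.18-fold lower and Strn4 1.82-fold higher on the keratinocyte-labelled arrays. Strn3 was not called, and its groups overlapped (log2 difference -0.05, limma adjusted p = 0.625). The angiomotin family gene Amotl1, whose protein holds YAP at junctions, was 3.08-fold lower. Rassf1, whose protein binds MST kinases, and Tnik, a MAP4K family gene, had log2 differences of 0.88 and 1.08 and were called higher. Tnik was above background on only 1 array. Rassf1 was above it on the 3 keratinocyte-labelled arrays, but its mean there, 5.95, lay below the background levels of the MEF-labelled arrays. No fold is therefore given for either gene. VGLL proteins compete with YAP for TEAD factors. Of their genes, Vgll3 was 1.66-fold higher on the keratinocyte-labelled arrays, at 8.87 ± 0.07 against 8.14 ± 0.07 (SD, n = 3, limma adjusted p = 1.16e-04). Vgll4, at 7.06 ± 0.05 on the keratinocyte-labelled and 6.94 ± 0.14 on the MEF-labelled arrays, and Vgll2, above background on no array, were not called (limma adjusted p = 0.321 and 0.175), although Vgll2 was without MEF-labelled replicate 3 (0.0464).

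Genes known as YAP and TAZ targets in other cells split in direction. Their list shares Ajuba and Ptpn14 with that of the other pathway genes, and both genes count in each. Of 30 such target genes besides the members, 25 were measured, and 12 (48.0%) were higher, 10 (40.0%) lower and 3 not called on the keratinocyte-labelled arrays. The median log2 difference was 0.17, against -0.12 over all genes. Their median absolute log2 difference was 1.23, against 0.57 over all genes. With a log2 difference of at least 1, 17 of the 25 (68.0%) were called, against 28.4% of all genes. The list was chosen with earlier results of these data known, so these shares are not independent of the data. Of its measured genes, 92% were above background on some array, against 73.2% of all genes. Among the 12, Ankrd1, which encodes a nuclear ankyrin-repeat protein of muscle and stressed cells, had log2 signals of 7.34, 7.40 and 7.33 on the keratinocyte-labelled arrays, against 1.99, 2.05 and 2.27 on the MEF-labelled arrays (at least 1.96-fold higher, limma adjusted p = 2.96e-09). Ccdc80, a matrix gene, was at least 23.0-fold higher, Tagln, an actin-binding protein gene, at least 17.8-fold, Ptx3, a secreted pentraxin gene, at least 2.37-fold and Tgfb2, a growth factor gene, at least 1.43-fold. All 5 were below background on every MEF-labelled array. Tagln and Ccdc80 are also abundant in fibroblasts and smooth muscle, and 10 of 10 fibroblast markers moved with them. The part of cell type in these differences was not tested.

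Among the 10 that were lower, Ajuba, which encodes a LIM protein that binds LATS, had log2 signals of 7.94, 7.89 and 7.96 on the keratinocyte-labelled arrays, against 9.42, 9.40 and 9.46 on the MEF-labelled arrays (2.82-fold lower, limma adjusted p = 8.15e-07). The proliferation genes Myc and Ccnd1 were 3.86-fold and 3.02-fold lower on the keratinocyte-labelled arrays. Myc stood at 6.87, 6.90 and 7.22 on the keratinocyte-labelled arrays, against 8.90, 8.96 and 8.98 on the MEF-labelled arrays. Nt5e, which encodes the ectonucleotidase CD73, was 6.88-fold lower as measured, and Fjx1, whose relative in the fly is a kinase of fat cadherins, had a log2 difference of -1.81, each being above background on 1 of the keratinocyte-labelled arrays.

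**Figure D4:**
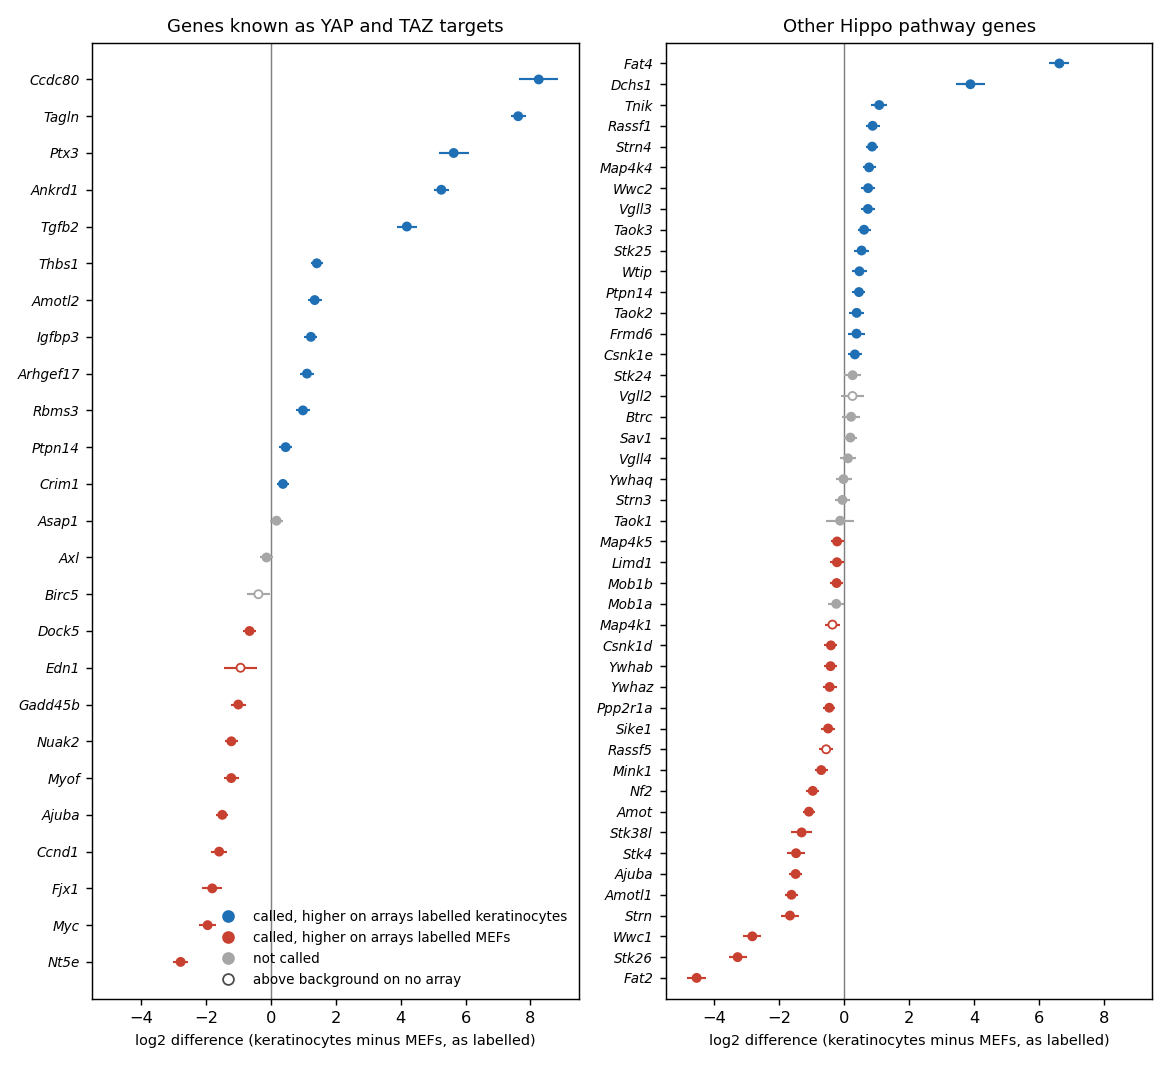
Log2 difference with its 95% interval from limma (horizontal axis, arrays labelled keratinocytes minus arrays labelled MEFs) for 25 genes known as YAP and TAZ targets (left) and 45 other Hippo pathway genes (right), coloured by the call. Both lists hold genes on both sides of 0, 12 and 10 called targets and 15 and 21 called pathway genes, and open circles mark genes above background on no array. Ajuba and Ptpn14 are on both lists.

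Likeness to the other genes was measured for Ccn1 and Tead4, the members with the largest measured difference in each direction. It was taken as the Euclidean distance over the 6 arrays after each gene was centred on its own mean. The measured differences of Tead4 and Tead2 rest on signals below background in 1 group, and the true difference of Tead2 may exceed that of Ccn1. Nearest to Tead4 among 10260 genes was Klf5, a Krüppel-like factor gene of proliferating epithelium, at a distance of 0.19, with a mean log2 signal of 6.26 on the keratinocyte-labelled arrays and 9.17 on the MEF-labelled arrays. Vav3, Acpp, Marveld2 and P3h2 followed at distances of 0.27 to 0.29, of which P3h2 alone was above background on any array. Nearest to Ccn1 were Boc, Foxd1, Trib3, Kcnma1 and Nfix, at distances of 0.10 to 0.14, with Foxd1 and Kcnma1 above background on no array. With 2 groups of arrays, such closeness reflects mainly an equal difference between the groups.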

How the data were processed

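The authors deposited log2 probe set signals of 6 arrays. The study's methods give RMA normalization with oligo (version 1.46.0 in the submitters' processing notes), which corrects background and brings arrays to a shared distribution, and so shrinks differences of dim genes. Over which arrays RMA was run, how the 15648 probe sets were chosen and the genome build are not given in the sources used here. Groups came from sample titles. Of the probe sets, 11288 had 1 symbol in the platform table, 645 had several and 3715 had no entry. Of the 11288, 11274 were found by Entrez ID in a RefSeq table (GRCm38.p6) and took its symbol.

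The linear model was fitted in R 4.3.3 with limma 3.58.1 (lmFit, then eBayes), without a block, and was tested on simulated data. Ratios within a role were compared by exact permutation tests in scipy 1.17.1. Promoter windows came from RefSeq. Named were all members, Cdh1 and Vim, the 5 called genes with the largest difference in each direction of the pathway and target lists, the upstream kinase and VGLL genes, and the 5 nearest genes. Strn3 was added beside Strn and Strn4. Members and lists were chosen with earlier results of these data known. The alternatives tried were leaving out single arrays, blocking on the replicate number, centring arrays on their medians, quantile normalization, filters on dim probe sets (the 25% dimmest, or those above background on fewer than 3 arrays), eBayes with trend, array weights, all probe sets, averaging over probe sets of a gene and a plain t-test, which the study's methods name for measurements other than its arrays (for those they name limma).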

Additional observations from a re-analysis of the deposited data

How the results depend on the processing

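Each of the 10 members, Cdh1 and Vim kept its direction and its call under all 16 alternatives. The differences ranged from -1.02 to -0.86 for Yap1, 0.76 to 0.99 for Wwtr1, -3.07 to -2.83 for Tead4, 2.14 to 2.34 for Tead2 and 0.32 to 0.48 for Tead3, whose largest adjusted p was 0.0240. Without single arrays the members counted 8 higher and 2 lower on the keratinocyte-labelled arrays, the pathway genes 15 to 16 and 17 to 20, and the target genes 12 and 10 to 11. The replicate block gave 8 and 2 members, 15 and 18 pathway genes and 12 and 11 target genes. Same-numbered arrays did not deviate together (correlations of -0.23, -0.21 and -0.03 across probe sets), and arrays of unlike number correlated at -0.03 to 0.21. These values do not show what the numbers stand for. Median centring moved the median difference of all genes to -0.02, against -0.12 before, and gave 18 and 17 pathway genes. Leaving out the dimmest 25% of probe sets left 21 of the 25 target genes in the test, of which 9 were called higher. The target genes so removed include Ankrd1, Ptx3 and Tgfb2, described above as higher on the keratinocyte-labelled arrays. Of the other named genes, Mob1b kept its call under 7 of 16 alternatives, and Mob1a and Sav1, not called, stayed so under 12 and 10. Signal over background limits the folds of Tead4 and Tead2, whose low groups lay under a level that rests on 10 probe sets, as did 2 of the 3 MEF-labelled arrays for Lats2.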
